A study of Homo sapiens with 4 samples.

Results

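The EGFR family comprises receptor tyrosine kinases of the cell surface and the growth factors that bind them, and it was followed through 10 genes taken by symbol from the 26255 genes of the table: the 3 receptor genes EGFR, ERBB2 and ERBB3 and the 7 ligand genes TGFA, HBEGF, EREG, AREG, BTC, EPGN and NRG1. All 10 symbols were found. The cells were A549, an established human lung adenocarcinoma line, in 4 RNA-seq libraries with 1 library per group. The acinar tumor library came from gland-forming areas and the solid tumor library from sheet-like areas of A549 xenografts in mice, cut out with a laser. The title of the study ties TGF-β signalling from fibroblasts to tumor histology. The mix culture and single culture libraries came from GFP-labelled A549 cells sorted out of 3D colonies, grown with cancer-associated fibroblasts (CAFs) in the mix culture and without them in the single culture. All groups share the 1 cell line, and the labels give no genotype, treatment or age of the mice, nor whether the acinar and solid areas came from the same animal.

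A ligand of this family is made as a membrane-bound precursor, is released by a metalloprotease of the ADAM group, and brings receptors together in pairs that phosphorylate each other and pass the signal to the RAS-ERK and PI3K-AKT pathways. TGFA, AREG and EPGN bind EGFR, while HBEGF, BTC and EREG bind EGFR and ERBB4, and NRG1 binds ERBB3 and ERBB4. ERBB2 has no known ligand and serves as a partner, and ERBB3 has little kinase activity of its own and signals mainly through its partner. In lung adenocarcinoma EGFR is a common oncogene.

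Values are scaled counts, which are the deposited normalised fragment signals divided by 8.94 in every library; they are not divided by gene length. An estimated 6630000 fragments stood behind the acinar tumor, 7270000 behind the solid tumor, 12180000 behind the mix culture and 10970000 behind the single culture, so that 1 fragment was worth 0.155, 0.140, 0.0805 and 0.0889 scaled counts in that order. Because every group is a single library, differences could not be checked against replicates and no p-value is given. Intervals at 95% are exact Poisson intervals for a level and exact conditional binomial (Clopper-Pearson) intervals for a fold, and both cover counting error only. The labels mention no molecular identifiers that would tell molecules from their copies, so the intervals may be too narrow even for counting error. The epithelial keratin genes KRT8 and KRT18 stood at 1554 scaled counts or more in all 4 libraries, and CDKN2A, which A549 cells have lost, had 1 fragment in the solid tumor and 0 in the other libraries.

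Most marker genes of other cell types were low. The 6 endothelial markers summed to at most 1.68 scaled counts in any library. The 12 fibroblast markers summed to 96.1 scaled counts in the acinar tumor, 59.9 in the solid tumor, 47.2 in the mix culture and 44.9 in the single culture. LUM, COL1A1 and ACTA2 made up most of these sums. LUM was at 55.4 and 19.6 scaled counts in the acinar and solid tumors, 0.0805 in the mix culture and 0 in the single culture. COL1A1 was at 30.7, 32.3, 29.5 and 19.3 in that order of libraries, and ACTA2 at 7.27, 5.80, 13.3 and 21.4. POSTN was listed at 0 in all 4 libraries, DCN in both cultures and PDGFRA and THY1 in both tumors, and COL3A1 reached at most 1.12 scaled counts. The 6 leukocyte markers summed to 142 scaled counts in the acinar tumor, 235 in the solid tumor, 42.8 in the mix culture and 48.9 in the single culture, CD68 and LYZ making up most of the tumor sums, while the pan-leukocyte gene PTPRC stood between 0.644 and 1.40. The 5 keratinocyte markers summed to 129 and 123 scaled counts in the acinar and solid tumors and to 70.9 and 69.9 in the mix and single cultures, mostly through KRT10. The xenograft host is a mouse and the values stand under human symbols, so these sums are no measure of host cells. Whether mouse fragments were counted under human symbols was not tested.

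Sequence upstream of 3 members is shown because these genes stood on opposite sides of the split between tumors and cultures: EGFR and EREG had lower levels and HBEGF higher levels in the tumors. Each run covers 250 bases before and 50 bases after a RefSeq start site on GRCh38.p14, a different build from the hg19 of the submitters' processing notes, and is written 5′ to 3′ on the strand of the gene. The windows are chr7:55018767-55019066 (plus strand) for EGFR, chr4:74364895-74365194 (plus strand) for EREG and chr5:140346554-140346853 (minus strand) for HBEGF. Capitals mark every match, on either strand, to the letters GGGCGG, known as the GC box, or to the letters TATAAA of the element bound by TBP, known as the TATA box.
EGFR: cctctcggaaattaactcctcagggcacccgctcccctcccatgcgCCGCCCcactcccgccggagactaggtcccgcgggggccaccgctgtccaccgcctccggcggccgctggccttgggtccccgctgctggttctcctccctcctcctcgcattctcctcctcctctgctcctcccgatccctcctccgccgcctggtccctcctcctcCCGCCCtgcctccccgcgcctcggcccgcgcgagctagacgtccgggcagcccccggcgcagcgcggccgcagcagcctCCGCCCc
EREG: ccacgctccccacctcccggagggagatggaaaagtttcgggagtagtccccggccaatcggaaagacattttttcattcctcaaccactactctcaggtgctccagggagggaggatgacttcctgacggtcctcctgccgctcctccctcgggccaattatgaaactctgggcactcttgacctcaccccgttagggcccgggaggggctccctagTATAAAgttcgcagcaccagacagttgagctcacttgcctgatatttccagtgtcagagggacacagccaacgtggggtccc
HBEGF: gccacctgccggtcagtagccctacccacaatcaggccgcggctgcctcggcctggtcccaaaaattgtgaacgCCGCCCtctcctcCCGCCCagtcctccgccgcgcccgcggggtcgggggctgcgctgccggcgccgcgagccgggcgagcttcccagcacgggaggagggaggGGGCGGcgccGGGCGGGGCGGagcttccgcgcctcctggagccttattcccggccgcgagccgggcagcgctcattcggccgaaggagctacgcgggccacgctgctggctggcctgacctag
The EGFR window held 3 GC box matches, the HBEGF window 5, of which 2 overlap, and the EREG window 0. EREG had a TATA box match 32 bases before its start site, where EGFR and HBEGF had none in these windows. GC content was 75.3% for EGFR, 75% for HBEGF and 57.7% for EREG, against a median of 58.7% over 35116 RefSeq windows of the same length, of which 44.95% held GGGCGG and 11.5% TATAAA. RefSeq windows were matched for 8 of the 10 members. The windows of AREG and EPGN each had a TATA box match 29 bases before the start site, and that of AREG also held TGACGTCA, the cyclic AMP response element, which 1.85% of all windows held. TGAGTCA, the AP-1 motif, was found in 4.95% of all windows. Among the 8 members whose windows were used, it had 2 matches in the window of another EGFR start site, which also held 2 TATA box matches. TGFA, whose tumor and culture ranges overlapped, had 1 window with 75.3% GC and 4 GC box matches and another with 63% GC and 0 matches. A link between the type of window and the levels was not tested. A match is a match of letters and does not show binding.

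Between tumors and cultures the family was split. EGFR, the EREG gene for epiregulin and NRG1 were lower in both tumors than in both cultures, and ERBB3 was higher in both tumors, in each case by 2-fold or more between the nearest libraries on the log2(value + 1) scale. That count was 1 member higher and 3 lower of the 7 members that reached 1 scaled count in at least one library, where 9.67% and 8.22% of all 14561 genes passed the same rule. Tumor and culture ranges did not overlap for 6 of the 7, but this was so for 78.5% of all genes. The median log2 ratio of mean tumor over mean culture levels was -0.37 for the 7 members and 0.02 for all genes. The member median is the value of TGFA alone and describes no shift shared by the family. EGFR, NRG1 and EREG ran from -2.93 to -1.89, and ERBB2, HBEGF and ERBB3 from 0.69 to 2.92. Growth site and collection, by laser or by sorting, cannot be told apart in this contrast, which is a description only. In bulk RNA such as this, fewer cells expressing a gene and less RNA per cell cannot be told apart either. Of the 10 epithelial and A549 markers, 4 were higher and 0 lower in the tumors by the same rule. EPCAM was at 28.1 and 20.3 scaled counts in the acinar and solid tumors against 2.09 and 2.31 in the mix and single cultures. The leukocyte sums given above were also higher in the tumors, with 2 of 4 measured markers higher and 0 lower by the rule. CD14 lay the other way, at 2.64 and 9.65 scaled counts in the acinar and solid tumors against 13.4 and 15.4 in the mix and single cultures. The part of these markers in the family's split was not tested.

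**Figure D1:**
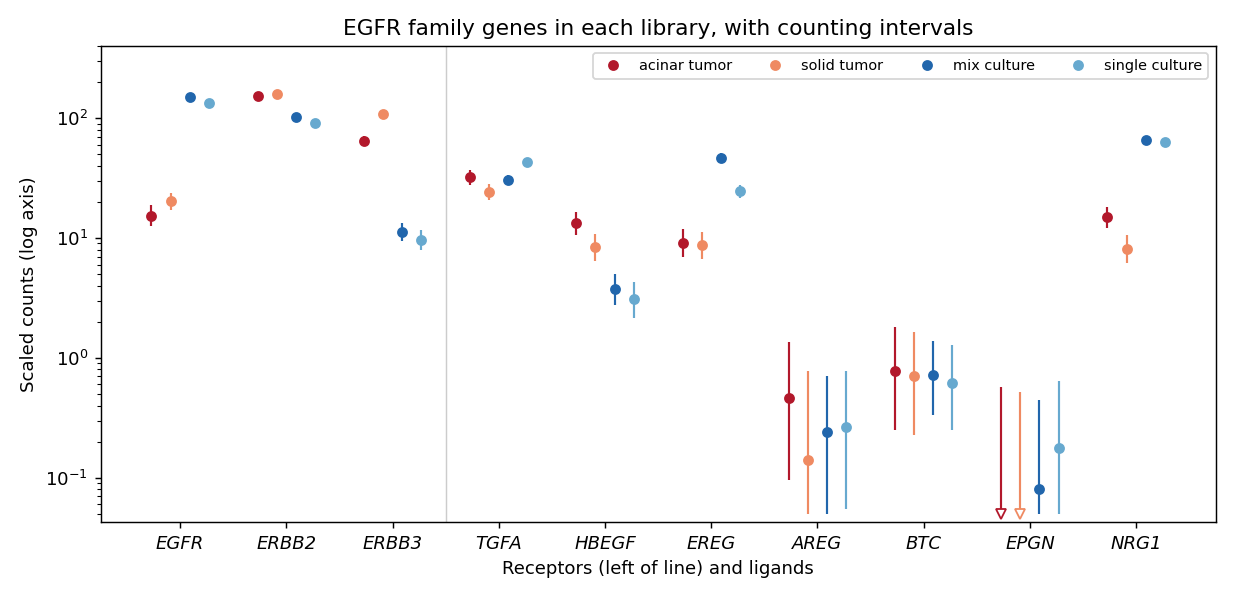
Scaled counts (log axis) of the 10 genes in the 4 libraries, with vertical lines for 95% Poisson intervals, cut off at the lower edge of the axis, and open triangles for a gene listed at 0. EGFR, EREG and NRG1 lie lower and ERBB3 and HBEGF higher in the tumors than in the cultures, and AREG, BTC and EPGN lie below 1 scaled count in every library.

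Among the receptors, EGFR had 15.3 scaled counts in the acinar tumor and 20.3 in the solid tumor, against 151 in the mix culture and 134 in the single culture. Every tumor level was below every culture level, and the folds of a tumor over a culture ran from 0.101 to 0.151. ERBB3 had 64.2 scaled counts in the acinar tumor and 107.5 in the solid tumor, against 11.2 in the mix culture and 9.69 in the single culture. Its tumor levels were 5.74-fold to 11.1-fold those of the cultures. ERBB2 varied least of the 3, at 153 and 159 scaled counts in the acinar and solid tumors against 101.5 and 90.3 in the mix and single cultures, or 1.51-fold to 1.76-fold.

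The opposite differences of EGFR and ERBB3 can be read within each library, where no scaling between libraries enters. The number of EGFR fragments per ERBB3 fragment was 0.239 in the acinar tumor (interval 0.190 to 0.298) and 0.189 in the solid tumor (0.157 to 0.225), against 13.5 in the mix culture (11.4 to 16.2) and 13.9 in the single culture (11.4 to 17.0). The tumor and culture intervals lie far apart, while the intervals overlap within the pair of tumors and within the pair of cultures. EGFR fragments per ERBB2 fragment were 0.1004 and 0.128 in the acinar and solid tumors against 1.49 and 1.49 in the mix and single cultures. ERBB2 fragments per ERBB3 fragment were 2.38 and 1.48 in the acinar and solid tumors, against 9.07 and 9.32 in the mix and single cultures. The intervals of the acinar tumor (2.12 to 2.68) and the solid tumor (1.35 to 1.62) did not overlap for that last ratio.

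Levels of different genes can be set side by side only per length. With exon lengths from GENCODE 29, an annotation on GRCh38, ERBB2 had the highest scaled counts per kb of exon of the 3 receptors in all 4 libraries, at 27.0 and 28.0 in the acinar and solid tumors and 17.9 and 15.9 in the mix and single cultures. The next place went to ERBB3 in the tumors (8.64 in the acinar and 14.5 in the solid tumor) and to EGFR in the cultures (13.3 in the mix and 11.8 in the single culture). EGFR made up 3.66% and 4.04% of the receptor sum per kb in the acinar and solid tumors against 40.7% in both cultures, and ERBB3 made up 23.4% and 32.7% in those tumors against 4.59% and 4.48% in the mix and single cultures. The order of the receptors was the same with the longest transcript as length.

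**Figure D2:**
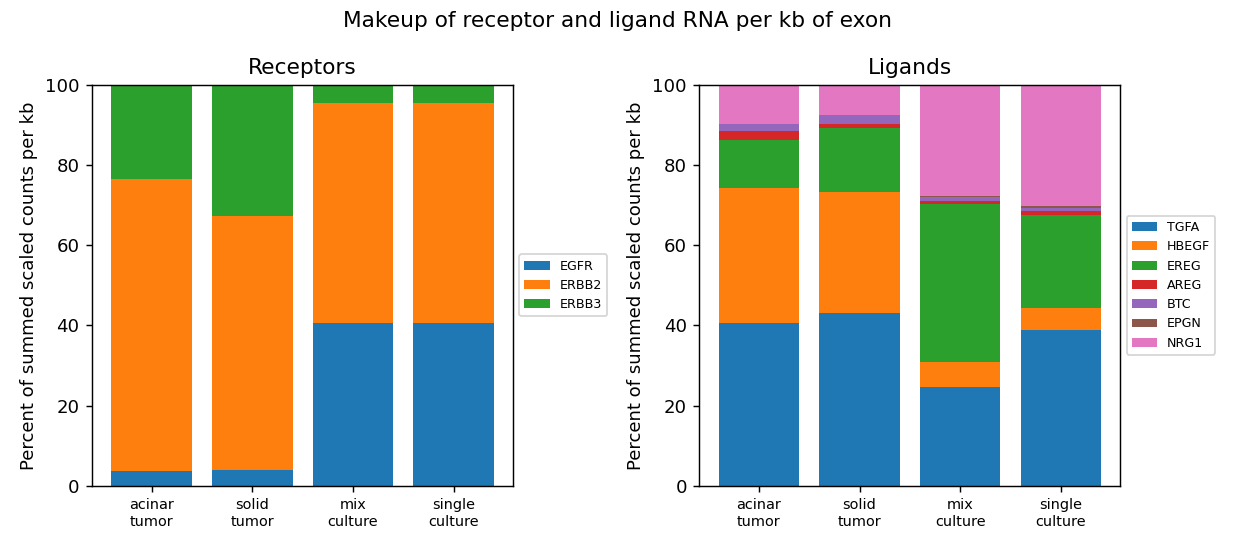
Share of each receptor (left) and each ligand (right) in the summed scaled counts per kb of exon, in percent, by library. ERBB2 is the largest receptor share in every library, ERBB3 is next in the tumors and EGFR next in the cultures, and HBEGF makes up 33.8% and 30.1% of the ligands in the acinar and solid tumors against 6.17% and 5.68% in the mix and single cultures.

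Among the ligands that bind EGFR, HBEGF, the heparin-binding member, had 13.3 scaled counts in the acinar tumor and 8.39 in the solid tumor, against 3.78 in the mix culture and 3.11 in the single culture. Its tumor levels were 2.22-fold to 4.29-fold those of the cultures, and with a log2 ratio of 0.97 between the nearest libraries it fell just short of the 2-fold rule, which it passed under 3 of the 8 alternative settings. EREG had 9.15 scaled counts in the acinar tumor and 8.67 in the solid tumor, against 46.9 in the mix culture and 24.4 in the single culture. With 0.185-fold to 0.374-fold of the culture levels and a log2 ratio of -1.33 between the nearest libraries, it was the member nearest to the 2-fold rule among those that passed. TGFA, which encodes transforming growth factor alpha, was the only measured member whose tumor and culture ranges overlapped, at 32.1 and 24.2 scaled counts in the acinar and solid tumors against 30.4 and 42.7 in the mix and single cultures.

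NRG1, the neuregulin gene and the ligand of ERBB3, had 14.9 scaled counts in the acinar tumor and 8.11 in the solid tumor, against 65.8 in the mix culture and 63.7 in the single culture. Its tumor levels were 0.123-fold to 0.234-fold those of the cultures. The ligand NRG1 and its receptor ERBB3 thus had opposite differences, the receptor being high where the ligand was low. Per kb of exon, TGFA and HBEGF led the ligands in both tumors, with TGFA at 6.69 in the acinar and 5.04 in the solid tumor and HBEGF at 5.59 and 3.52. In the cultures EREG, NRG1 and TGFA stood within a narrower span, from 6.34 to 10.1 in the mix culture and from 5.29 to 8.91 in the single culture, and their order changed with the length used.

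**Figure D3:**
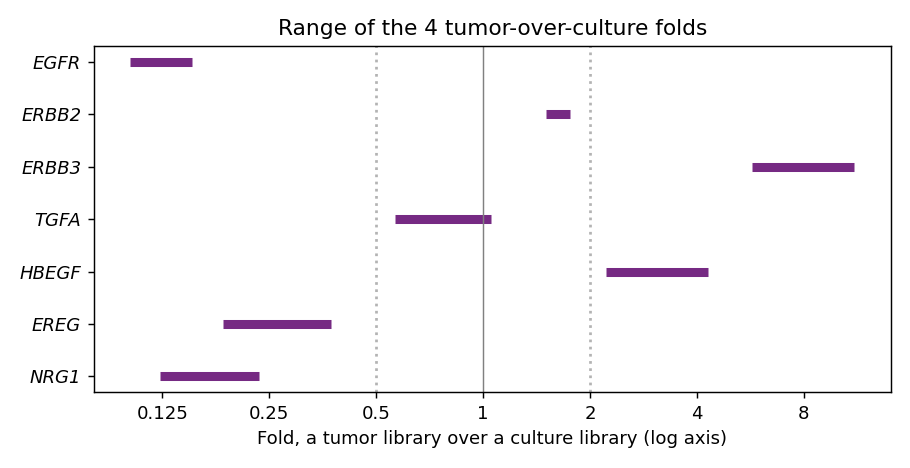
Lowest to highest of the 4 folds of a tumor library over a culture library for the 7 members at 1 scaled count or more (log axis), with a solid line at no difference and dotted lines at 0.5 and 2. EGFR, EREG and NRG1 lie wholly to the left of 0.5, ERBB3 and HBEGF wholly to the right of 2, and TGFA crosses 1.

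AREG, BTC and EPGN never reached 1 scaled count in a library. AREG, encoding amphiregulin, had 3 fragments in the acinar tumor and 1 in the solid tumor, against 3 in each culture. The hg19 build carries another near-identical copy of AREG, and no source used here says how fragments were shared between copies, so this low level is uncertain. BTC, encoding betacellulin, had 5 fragments in each tumor, 9 in the mix culture and 7 in the single culture, or 0.622 to 0.775 scaled counts, with Poisson intervals that all overlapped. EPGN, encoding epigen, had 0 fragments in both tumors, 1 in the mix culture and 2 in the single culture. A count of 0 allows up to 3 fragments as a 1-sided limit, or 0.465 scaled counts in the acinar and 0.420 in the solid tumor, and the 2-sided Poisson interval used for the levels ends at 0.572 and 0.516. EPGN, EREG, AREG and BTC follow each other in this order on chromosome 4 in RefSeq with no other protein-coding gene between them, and of these 4 neighbours EREG alone was measured above 1 scaled count.

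EGFR values carry a counting limit in the cultures. EGFR was estimated at 1878.95 fragments in the mix culture and 1509.90 in the single culture, which are not whole, and EGFR-AS1, the antisense gene within EGFR, at 1.05 and 2.10. Each pair adds up to a whole number, 1880.0 in the mix culture and 1512.0 in the single culture, and in both tumors EGFR-AS1 was listed at 0 and EGFR was whole. Without a known strand setting, fragments of EGFR and EGFR-AS1 cannot be told apart, and the fragments listed for EGFR-AS1 were at most 2.10. EGFR fold intervals for the cultures use fragments rounded to whole numbers.

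Acinar was compared with solid tumor, the question being how the tumor cells of gland-forming areas differ from those of solid areas. With counting intervals off 1, 2 of the 3 receptor genes were lower and 3 of the 4 measured ligand genes higher in the acinar tumor. None of the 7 measured members was past 2-fold on the log2(value + 1) scale, where 4.54% of 13979 genes were. The counting interval of the fold excluded 1 for 5 of the 7, where it did so for 35.1% of the 12405 genes with whole fragments in both libraries. The 3 members with an interval above 1 were NRG1, HBEGF and TGFA (18.4% of all those genes) and the 2 below 1 were ERBB3 and EGFR (16.7%). Log2 ratios of the members ran from -0.74 to 0.80 with a median of 0.07, against a median of 0.01 over all genes.

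ERBB3 in the acinar tumor was 0.597-fold its level in the solid tumor (64.2 against 107.5 scaled counts, interval 0.528 to 0.674). EGFR was 0.757-fold (15.3 against 20.3 scaled counts, 0.580 to 0.984), with 99 fragments in the acinar and 145 in the solid tumor, so that its interval ended close to 1. The ERBB2 interval held 1 (153 against 159 scaled counts, 0.963-fold, 0.883 to 1.05).

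NRG1 was 1.84-fold higher in the acinar tumor (14.9 against 8.11 scaled counts, interval 1.31 to 2.59), HBEGF 1.59-fold higher (13.3 against 8.39 scaled counts, 1.13 to 2.25) and TGFA 1.33-fold higher (32.1 against 24.2 scaled counts, 1.08 to 1.63). EREG was at 9.15 against 8.67 scaled counts, a fold of 1.06 with an interval of 0.726 to 1.53, so that a difference inside that interval was not detectable at this depth. Of the 12 fibroblast markers, 5 were measured in this pair, and 2 of these, LUM and FAP, were past 2-fold higher in the acinar tumor and 0 lower. LUM, at 55.4 against 19.6 scaled counts, made up most of the higher sum in the acinar tumor, whereas COL1A1 was at 30.7 against 32.3 and COL3A1 at 0.310 against 1.12. Among keratinocyte markers TP63 was at 38.3 against 12.2 scaled counts (3.15-fold, 2.46 to 4.07), KRT14 had 16 fragments in the acinar tumor and 0 in the solid tumor, and KRT10 was at 87.1 against 109.8 scaled counts. The part of these cell type markers in the member differences was not tested.

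**Figure D4:**
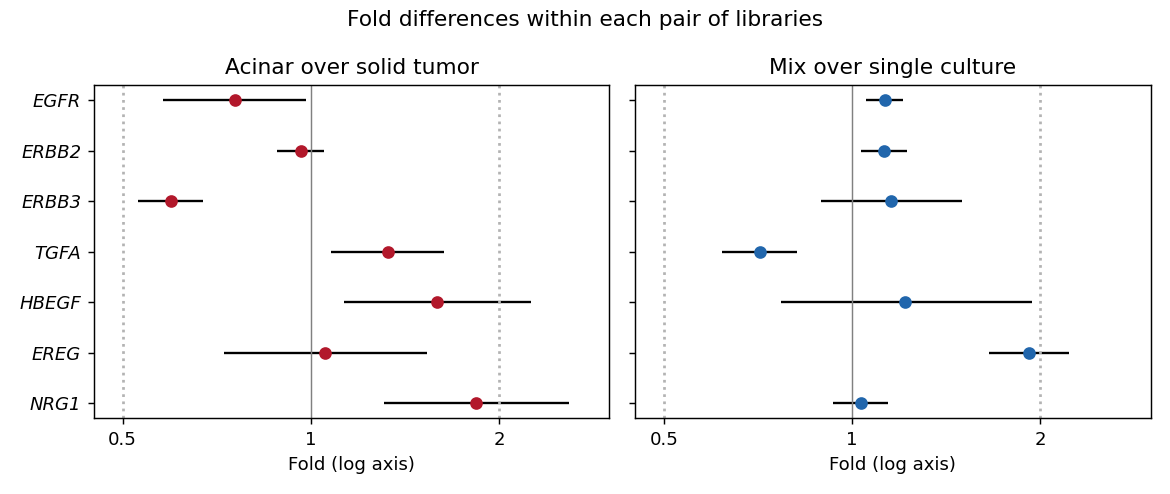
Fold of the acinar over the solid tumor (left) and of the mix over the single culture (right) for the 7 measured members on a log axis, with 95% counting intervals as horizontal lines, a solid line at no difference and dotted lines at 0.5 and 2. TGFA lies above 1 on the left and below 1 on the right, and EREG lies furthest from 1 on the right.

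Comparing mix with single culture, the question being how A549 colonies grown with CAFs differ from those grown alone, EREG was higher and TGFA lower in the mix culture, and the receptor genes EGFR and ERBB2 were higher by small amounts. None of the 7 measured members was past 2-fold, where 2.42% of 13485 genes were. Counting intervals excluded 1 for 4 of the 7, against 43.8% of the 11806 genes with whole fragments in both cultures. The 3 above 1 were EREG, EGFR and ERBB2 (23.4% of all those genes) and the 1 below 1 was TGFA (20.4%). EGFR, whose fragments are not whole in the cultures, is outside the genes behind these shares. Log2 ratios ran from -0.48 to 0.91 with a median of 0.17 for the members and of 0.01 over all genes.

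EREG in the mix culture was 1.92-fold its level in the single culture (46.9 against 24.4 scaled counts, 582 against 275 fragments, interval 1.66 to 2.22). TGFA was 0.712-fold (30.4 against 42.7 scaled counts, 0.621 to 0.816). The balance of these EGFR ligands therefore differed within the libraries, TGFA having 0.649 fragments per EREG fragment in the mix culture (0.569 to 0.741) and 1.75 in the single culture (1.51 to 2.04).

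EGFR was 1.13-fold higher in the mix culture (151 against 134 scaled counts, interval 1.05 to 1.21) and ERBB2 1.12-fold higher (101.5 against 90.3 scaled counts, 1.03 to 1.22). Intervals held 1 for ERBB3 (11.2 against 9.69 scaled counts, 1.16-fold, 0.893 to 1.498), for HBEGF (3.78 against 3.11 scaled counts, 1.22-fold, 0.769 to 1.94) and for NRG1 (65.8 against 63.7 scaled counts, 1.03-fold, 0.933 to 1.14). The NRG1 interval ended at 1.14-fold. The fibroblast marker sums of the cultures, 47.2 and 44.9 scaled counts in the mix and single cultures, held members that lay on opposite sides: COL1A1 was at 29.5 against 19.3 scaled counts (1.53-fold, interval 1.29 to 1.82) and ACTA2 at 13.3 against 21.4 in the mix and single cultures, while POSTN and DCN were at 0 in both. Their part in the culture values was not tested.

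TGFA and EGFR were the members whose folds lay on opposite sides of 1 in the 2 comparisons with both intervals off 1. The share of all genes that meet this joint rule was not counted. Taken singly, intervals were off 1 for 35.1% of genes in acinar over solid tumor and 43.8% in mix over single culture. These comparisons share no library. TGFA was higher in the acinar than in the solid tumor and lower in the mix than in the single culture, and EGFR was lower in the acinar tumor and higher in the mix culture.

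Genes whose levels over the 4 libraries were most like those of EGFR included NPR3, PEG10, MORC4 and KIF18A. Likeness was the Euclidean distance between log2(value + 1) values centred on their mean over the 4 libraries, taken over 8738 genes with whole fragments that reached 5 scaled counts in every library. The distances of these genes ran from 0.158 for NPR3 to 0.298 for KIF18A, a mitotic kinesin gene, against a median of 2.92 over all candidates. NPR3, the natriuretic peptide clearance receptor gene, stood at 5.74 and 6.85 scaled counts in the acinar and solid tumors against 57.8 and 56.4 in the mix and single cultures. AREG was also to be described this way, but with 1 to 3 fragments per library it has no pattern to match.

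Genes that act on the family were taken in 5 lists, and few of them passed 2-fold within a pair. Over all genes, 1.98% were past 2-fold higher and 2.55% lower in the acinar tumor, and 0.682% higher and 1.74% lower in the mix culture. Of 14 genes for the shedding and delivery of ligands, 1 was past 2-fold higher and 0 lower in the acinar tumor (median log2 ratio 0.12). This was ADAM19, a metalloprotease that can cleave neuregulins, at 15.5 against 1.12 scaled counts and 13.9-fold (interval 6.77 to 33.0). ADAM17, the main protease for TGFA, AREG and HBEGF, was at 24.3 against 22.0 scaled counts. In the mix culture 0 of 12 measured shedding genes were past 2-fold (median 0.04).

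**Figure D5:**
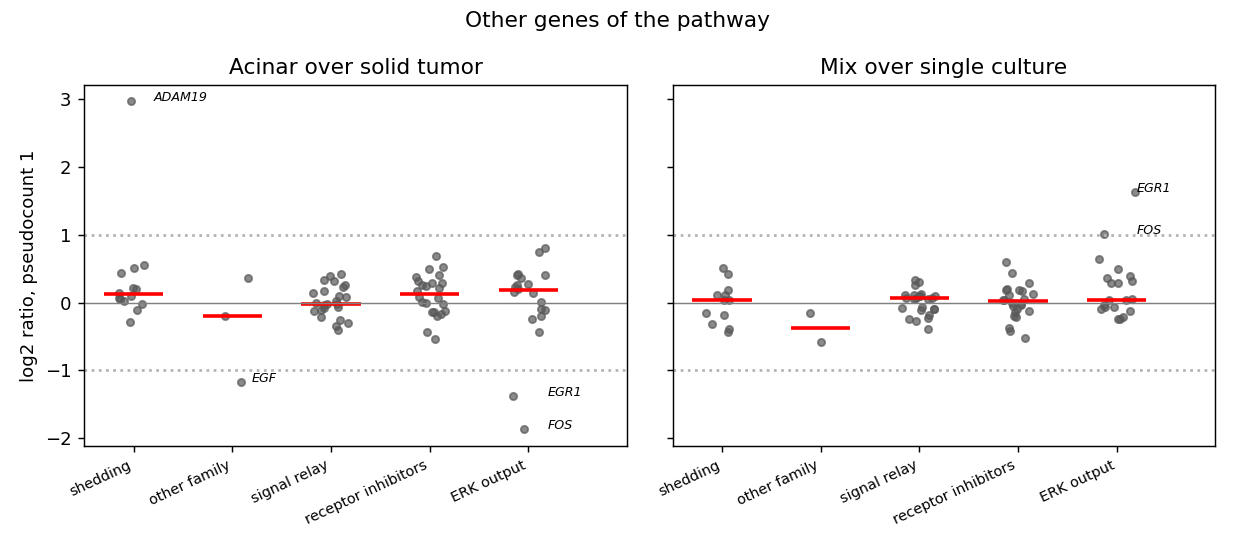
Log2 ratios with pseudocount 1 of the genes in 5 lists around the family, for acinar over solid tumor (left) and mix over single culture (right); each point is a gene, the red bar is the list median and dotted lines mark 2-fold. Few genes lie outside the dotted lines, and EGR1 and FOS lie below them on the left and above them on the right.

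Signal relay genes, from the adaptor GRB2 to the kinases of the RAS-ERK and PI3K-AKT pathways, had 0 of 24 past 2-fold in either pair, with medians of -0.02 for acinar over solid tumor and 0.06 for mix over single culture. Receptor inhibitors and endocytosis genes also had 0 of 24 measured past 2-fold in either pair (medians 0.12 and 0.02). ERRFI1, the feedback inhibitor of EGFR kinase activity, was at 251 against 363 scaled counts in the acinar and solid tumors, 0.691-fold (0.649 to 0.736), and LRIG1, another receptor inhibitor, was at 66.4 against 41.0 scaled counts (both chosen after their values were seen).

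Genes that report on ERK activity went in both directions. In the acinar tumor 0 of 20 were past 2-fold higher and 2 lower (median 0.18), and in the mix culture 2 were past 2-fold higher and 0 lower (median 0.04). Both pairs turned on the same immediate early genes, FOS and EGR1. FOS was at 28.99 against 108 scaled counts in the acinar and solid tumors and at 670 against 334 in the mix and single cultures. EGR1 was at 7.29 against 20.6 scaled counts in the acinar and solid tumors and at 313 against 101 in the mix and single cultures. The slower ERK targets PHLDA1 and DUSP4 did not follow them in the tumors, PHLDA1 being 1.68-fold higher in the acinar tumor (213 against 127 scaled counts, 1.54 to 1.83) and DUSP4 at 654 against 489 scaled counts (chosen after their values were seen).

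Between tumors and cultures, 7 of the 20 ERK output genes were lower in both tumors and 1 was higher by the 2-fold rule, with a median log2 ratio of -0.53, where 8.22% of all genes were lower and 9.67% higher. Besides FOS and EGR1 the lower ones included SPRY4, a feedback inhibitor of the pathway, at 12.2 and 11.0 scaled counts in the acinar and solid tumors against 39.2 and 37.95 in the mix and single cultures, and PHLDA1, at 213 and 127 against 506 and 551. Among shedding genes 4 were higher and 3 lower in the tumors. ADAM17 was among the lower, at 24.3 and 22.0 scaled counts in the acinar and solid tumors against 57.4 and 63.7 in the mix and single cultures, and ADAM15, another metalloprotease, among the higher, at 387 and 336 against 104 and 137. TIMP3, the inhibitor of ADAM17, stood at 13.5 and 16.6 scaled counts in the acinar and solid tumors against 0.0805 in the mix culture, and was listed at 0 in the single culture. CBL, the ubiquitin ligase that marks EGFR for degradation, was the 1 receptor inhibitor past the rule, at 18.1 and 13.4 scaled counts in the acinar and solid tumors against 47.8 and 49.6 in the mix and single cultures. Signal relay genes had 1 of 24 higher, the adaptor gene GAB2 at 32.1 and 25.3 scaled counts in the acinar and solid tumors against 6.92 and 7.38 in the mix and single cultures, and 1 lower, the phosphatase gene PTPN11 at 71.2 and 75.5 against 208 and 194. The other shedding and ERK output genes past the rule were ADAM12, ADAM19, SPRED3, FOSL1 and ETV1, lower in the tumors, and RHBDF1, RHBDL2 and DUSP5, higher in them. The genes named here for tumors against cultures were chosen after their values were seen.

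Among the other receptor and ligand genes of the family, ERBB4, NRG3 and EGF reached at most 1.96 scaled counts in a library, and NRG2 and NRG4 at most 7.97. ERBB4 had 4 fragments in the acinar tumor, 0 in the solid tumor, 0 in the mix culture and 1 in the single culture. NRG3 was listed at 0 in all 4 libraries. EGF, the founding ligand, was past 2-fold lower in the acinar tumor on 2 against 14 fragments (0.158-fold, interval 0.0175 to 0.690). NRG2 was lower in the tumors, at 1.55 and 0.979 scaled counts in the acinar and solid tumors against 7.005 and 7.91 in the mix and single cultures, as NRG1 was. NRG4 was at 6.82 against 7.97 scaled counts in the acinar and solid tumors, and at 3.22 against 5.33 in the mix and single cultures, the cultures differing 0.604-fold (0.394 to 0.916). EGF, NRG2 and NRG4 were chosen after their values were seen.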

How the data were processed

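Libraries of 4 groups of A549 cells, 1 per group, were prepared with a TruSeq kit per the labels' protocols. Sample titles gave the groups, and the mix culture was taken to be the colonies grown with CAFs, the only other condition in the protocols. The submitters' processing notes list Bowtie2 2.2.3, TopHat2 2.0.13, Cuffdiff 2.2.1, SAMtools 1.0 and hg19, with no roles, and neither the annotation nor the strand setting is stated. The authors deposited 1 signal value per gene and library. The values behave as fragments over a library's size factor: between 90.0% and 91.2% of those above 0 lay within 0.05 of a whole number of fragments once divided by a step found for each library. Since the plan had assumed values of about the size of CPM, 8.94 was used as a common divisor.

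Ratios within a pair are log2((value + 1)/(value + 1)) over genes at 1 scaled count or more in either library; folds are plain ratios. Tumors were set against cultures by the nearest libraries. Scripts used Python 3.11.15, pandas 2.3.3 and scipy 1.17.1, and the interval and 2-fold steps were tested on simulated data. Alternatives changed the pseudocount, filter, scaling and the genes kept. All 10 members are named; of the lists, genes past 2-fold within a pair at 5 scaled counts or more, and the 5 genes most like EGFR, of which 1 is not reported here. For AREG the same was planned and is not given. Members and lists were chosen with earlier results of these data known.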

Additional observations from a re-analysis of the deposited data

Results flagged for a closer look

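TGFA and EGFR moved in opposite directions in the tumor and culture comparisons, each with a counting interval off 1. TGFA was 1.33-fold in the acinar over the solid tumor and 0.712-fold in the mix over the single culture. EGFR was 0.757-fold in the acinar over the solid tumor and 1.13-fold in the mix over the single culture. The EGFR interval for acinar over solid tumor ended at 0.984. Intervals were off 1 for 35.1% of all genes in that pair and 43.8% in the cultures, and the share meeting both with opposite directions was not counted. With 1 library per group the difference between the comparisons was not tested across samples.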

How the results depend on the processing

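No paired analysis was possible because each group has 1 library. The 14 member ratios within a pair kept their direction and stayed within their counting intervals under every alternative that gave a value (109 values), and 0 members passed 2-fold within a pair under all 8. EGFR gave no value where only genes with whole fragments were kept, and HBEGF none for mix over single culture with a filter of 5. With libraries rescaled by the upper quartile, the ERBB2 interval for acinar over solid tumor moved off 1 (0.916-fold, 0.840 to 0.998); the other interval calls were kept under the 3 scalings, which moved a pair by at most 0.07 on the log2 scale. The count of members higher in both tumors was 2, with HBEGF added, with a pseudocount of 0.1, with the median ratio scaling and with the upper quartile scaling. The count lower in both tumors fell from 3 to 2, EREG and NRG1, where only genes with whole fragments were kept, as EGFR is then left out. For all genes past 2-fold, a pseudocount of 0.1 gave 478 higher and 692 lower in the acinar tumor and 192 and 522 in the mix culture. A pseudocount of 5 gave 114 and 101 in the acinar tumor and 33 and 73 in the mix culture, and a filter of 5 gave 203 lower in the acinar tumor; the main counts were 277 and 357, and 92 and 234. Depth limits AREG, BTC and EPGN most, with at most 9 fragments.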
